A study of Mus musculus with 12 samples.

Results

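The 10 genes described here are markers of the mesothelium and of simple epithelia: Wt1, Msln, Upk3b, Upk1b, Lrrn4, Bnc1 and Gpm6a, called the mesothelial genes below, and the keratin genes Krt8, Krt18 and Krt19. They were chosen by symbol and the rule names no measured value, but earlier results of these data were known at the time. All 10 were found among the 23329 genes listed in each count table. The study measured polyadenylated RNA by mRNAseq in primary stromal cells of the small intestine from C57BL6/J mice, labelled as intestinal myofibroblasts. The 4 groups, with 3 libraries each, were cells from E14.5 embryos or from adult mice, each cultured for 6 h with lipopolysaccharide (LPS) of E. coli O111:B4, a bacterial cell wall component, at 10 µg/µl as the labels give it, or with PBS as the vehicle control. Adult intestines were first opened and their villi scraped off, while the smaller embryonic intestines were cut into pieces. This difference in preparation cannot be told apart from the difference in stage. Every tissue was then stripped of its epithelial layer with a chelating buffer and digested with collagenase and dispase. The cells were plated in medium with the ROCK inhibitor Y27632 and used at passage 2 to 3. The study states independent cultures, each embryonic one from 6 pooled embryos and the adult ones from 3 mice, so an embryonic value is already an average over embryos.

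The mesothelium is the flat epithelial sheet on the outer, peritoneal face of the intestine, and it lies on the stroma, so that a digest of the gut wall without its inner epithelium can still carry it. It is an epithelium of mesodermal origin: its cells hold keratin filaments like the gut lining, but also carry WT1, a zinc finger transcription factor of the developing coelomic lining, and MSLN, a surface glycoprotein. During development mesothelial cells also give rise to mesenchymal cells of the gut wall. Keratins 8 and 18 are partners that build the filaments of simple epithelia together, and keratin 19 joins them in many simple epithelia, the gut lining included.

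Library totals ran from 18850224 to 32672370 gene counts, so that 3 counts, taken as the floor, equalled 0.0907 to 0.145 CPM (read counts scaled to a common library size, scaled by TMM, the trimmed mean normalisation of edgeR). The lowest count of any of the 10 genes in any library was 17 (Lrrn4), and all 10 passed the expression filter (CPM above 0.5 in every library of at least 1 group), which 13038 genes passed. Reads on the opposite strand of these genes came to at most 2.86% of a gene's reads. Libraries carry the numbers 1 to 3 within a group in the labels, and a library given LPS and one given PBS with the same stage and number are called the same culture here. The labels do not say so, but their deviations from the group means correlated at 0.61 to 0.849 in all 6 such pairs. Krt8 and Krt18 have processed copies elsewhere in the genome, and reads that mapped to more than one place had been dropped, so their counts may be low by that share.

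The culture type was checked first. Smooth muscle and myofibroblast genes (Acta2, Myh11, Tagln, Cnn1, Des and Actg2) summed to between 13494 and 34687 CPM and fibroblast genes (Col1a1, Col1a2, Col3a1, Pdgfra, Dcn and Lum) to between 7605 and 23402 CPM. The 7 mesothelial genes summed to between 148 and 1537 CPM. Of 13 listed genes of the intestinal lining, 11 stayed under 1 CPM in every library. Epcam, the surface adhesion molecule of that lining, was at most 0.487 CPM, and Cdh1, the epithelial cadherin, at most 1.05 CPM. Krt20, the highest of that list, went the other way, at 7.06 to 59.4 CPM over all libraries. In these bulk libraries, fewer cells of a type and less RNA of a gene in each cell cannot be told apart, so all values below are RNA levels.

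Genome positions are of build GRCm38.p6 by RefSeq. Lrrn4, for a leucine-rich repeat membrane protein, lies at chr2:132866686-132894010 on the minus strand. Gpm6a, for a neuronal and epithelial membrane glycoprotein, lies at chr8:54779434-55060878 on the plus strand. Upk3b, for a uroplakin of the mesothelial and urothelial surface, lies at chr5:136038496-136044993 on the plus strand, and Bnc1, for the zinc finger protein basonuclin, at chr7:81966657-81992299 on the minus strand. Upk1b, for a tetraspanin of the uroplakin group, lies at chr16:38773182-38800203, Msln at chr17:25748613-25754378, Wt1 at chr2:105126529-105173614 and Krt19 at chr11:100140810-100145926. Krt8 and Krt18 are neighbours on chromosome 15, 23.9 kb apart and on opposite strands. The RefSeq promoter table held 7 windows for 6 of the genes (2 of them for Gpm6a); those of Wt1, Msln, Upk1b and Krt19 were not shown. The sequences of the 250 bases before the start of Lrrn4, Gpm6a, Upk3b and Bnc1 are printed, since in Lrrn4, Gpm6a and Bnc1 the stages did not overlap, and in Upk3b they did. The Lrrn4 window ends at a transcript start inside the annotated span of the gene. Capitals mark matches to a searched motif on either strand.
Lrrn4 (chr2:132880863-132881112, minus strand): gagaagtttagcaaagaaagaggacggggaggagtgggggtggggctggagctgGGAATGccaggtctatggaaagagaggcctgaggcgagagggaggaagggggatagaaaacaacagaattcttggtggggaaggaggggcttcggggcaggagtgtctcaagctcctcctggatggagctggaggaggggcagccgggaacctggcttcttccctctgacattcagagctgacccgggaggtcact
Gpm6a, first window (chr8:54779184-54779433, plus strand): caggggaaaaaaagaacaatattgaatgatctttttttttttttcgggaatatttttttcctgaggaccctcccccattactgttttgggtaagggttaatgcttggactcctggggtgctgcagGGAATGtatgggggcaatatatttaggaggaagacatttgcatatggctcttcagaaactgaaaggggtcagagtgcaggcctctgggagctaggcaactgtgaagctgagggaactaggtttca
Upk3b (chr5:136038246-136038495, plus strand): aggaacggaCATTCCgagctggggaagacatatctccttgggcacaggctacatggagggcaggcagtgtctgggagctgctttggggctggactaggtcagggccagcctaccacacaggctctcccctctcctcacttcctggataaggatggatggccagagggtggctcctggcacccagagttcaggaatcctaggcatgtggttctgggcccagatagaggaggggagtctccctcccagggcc
Bnc1 (chr7:81992300-81992549, minus strand): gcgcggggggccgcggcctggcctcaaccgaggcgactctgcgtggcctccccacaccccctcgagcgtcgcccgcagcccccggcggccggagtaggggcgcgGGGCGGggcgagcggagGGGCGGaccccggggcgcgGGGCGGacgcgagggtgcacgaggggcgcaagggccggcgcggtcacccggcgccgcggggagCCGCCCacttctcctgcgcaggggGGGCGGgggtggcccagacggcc

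The capitals in the first 3 sequences are CATTCC or its reverse complement GGAATG, the core of the M-CAT element that TEAD factors bind, which stood at 196 bases before the start of Lrrn4, 125 before that of Gpm6a and 241 before that of Upk3b. This word was in 3 of the 7 windows, and in 12.6% of all 32851 RefSeq promoter windows of the same length. The capitals in the Bnc1 sequence are GGGCGG or its reverse complement CCGCCC, the GC box, of which there were 5 matches in that window and none in the other 6, against 32.7% of all windows with at least 1. The Bnc1 window was 83.6% G or C, against 59.2% for Lrrn4, 60.8% for Upk3b, 44.4% for the first Gpm6a window and a median of 52.4% over all windows. No member window held CCAAT (33.8% of all windows), the WT1 and EGR core GCGTGGG (4.30%) or the AP-1 word TGANTCA (6.75%), and TATAAA (12.4%) was in the second Gpm6a window alone. A match is a description of the letters and not a measured binding site.

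Within each stage the summed mesothelial genes differed more between cultures than between treatments. Summed over the 7 genes, E14.5 cultures 1, 2 and 3 with PBS gave 152, 778 and 148 CPM, and with LPS 153, 656 and 158 CPM. Adult cultures 1, 2 and 3 gave 1528, 645 and 807 CPM with PBS and 1537, 536 and 719 CPM with LPS. E14.5 culture 2 thus carried several times the level of the other E14.5 cultures in both treatments and lay within the adult range, while adult culture 1 was the highest of all.

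**Figure D1:**
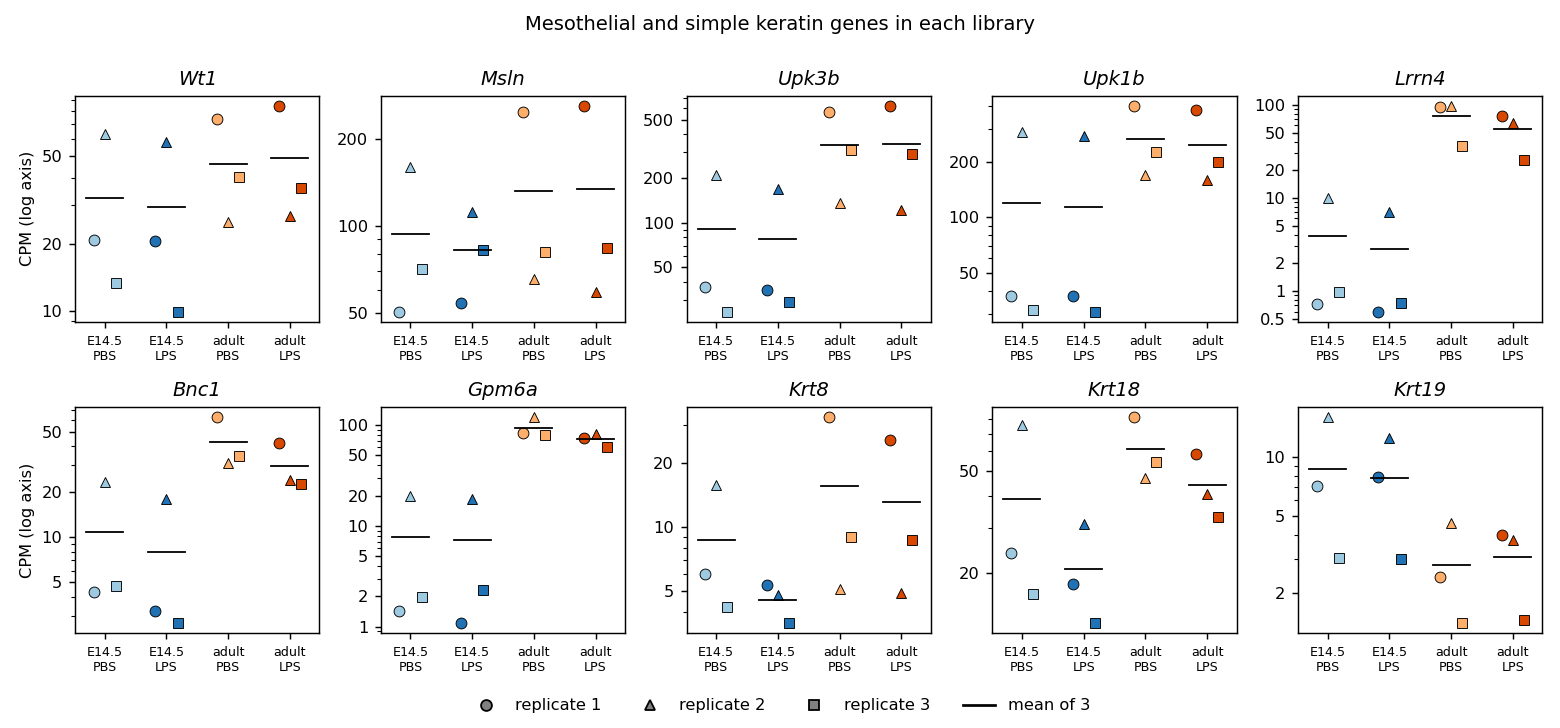
CPM (log axis) of each of the 10 genes in each library, in 4 groups of stage and treatment on the horizontal axis, where the marker shape is the replicate number and the bar the mean of the 3 libraries. E14.5 replicate 2 (triangles) was the highest of the 3 E14.5 libraries in 10 of 10 genes with PBS and 9 of 10 with LPS, and the adult libraries of Lrrn4, Bnc1 and Gpm6a lay above all E14.5 libraries of the same treatment.

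The uroplakin genes showed this pattern. Upk3b stood at 36.7, 212 and 25.0 CPM in E14.5 cultures 1 to 3 with PBS and at 35.3, 169 and 29.0 CPM with LPS. In the adult cultures it stood at 562, 136 and 311 CPM with PBS and at 619, 122 and 292 CPM with LPS. E14.5 culture 2 was above adult culture 2 in both treatments, so the stages overlapped. Upk1b was measured at 37.5, 290.4 and 31.5 CPM in the E14.5 cultures with PBS and at 37.6, 275 and 30.8 CPM with LPS. The adult values were 402, 169.7 and 226 CPM with PBS and 382, 160.1 and 199 CPM with LPS. Again E14.5 culture 2 alone reached the adult range, at 8.42 times the mean of E14.5 cultures 1 and 3 with PBS and 8.03 times with LPS.

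Wt1 and Msln, the best known markers of the group, spread as widely within the adult cultures as between the stages. Wt1 stood at 20.9, 63.1 and 13.4 CPM in E14.5 cultures with PBS and at 20.7, 57.6 and 9.90 CPM with LPS. The adult cultures gave 73.3, 25.3 and 40.2 CPM with PBS and 84.3, 26.7 and 35.8 CPM with LPS. Culture 2 was thus the highest E14.5 culture and the lowest adult one. Msln stood at 50.4, 159.7 and 70.8 CPM in E14.5 cultures with PBS and at 54.2, 112 and 82.3 CPM with LPS. In adult cultures it stood at 249, 65.5 and 81.0 CPM with PBS and at 261, 58.9 and 83.6 CPM with LPS. Without adult culture 1, the adult values of Msln lay inside the E14.5 range.

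Lrrn4, Gpm6a and Bnc1 were the genes in which the stages did not overlap in either treatment. Lrrn4 stood at 0.727, 9.84 and 0.968 CPM in the E14.5 cultures with PBS, from 24, 323 and 32 counts, and at 95.3, 97.0 and 36.0 CPM in the adult cultures. With LPS the E14.5 values were 0.596, 7.09 and 0.741 CPM and the adult values 75.1, 63.0 and 25.4 CPM. The lowest adult library was 3.66 times the highest E14.5 library with PBS and 3.58 times with LPS. Gpm6a stood at 1.42, 19.8 and 1.97 CPM in the E14.5 cultures with PBS and at 84.2, 120.0 and 78.9 CPM in the adult cultures. With LPS it stood at 1.09, 18.4 and 2.34 CPM against 74.4, 81.6 and 61.0 CPM. Its adult cultures were the most alike of all 10 genes, with the highest at 1.52 times the lowest with PBS and 1.34 times with LPS. Bnc1 stood at 4.30, 23.3 and 4.75 CPM in the E14.5 cultures with PBS and at 62.6, 31.1 and 34.4 CPM in the adult cultures. With LPS the values were 3.23, 18.03 and 2.69 CPM against 41.9, 23.9 and 22.6 CPM, a gap of 1.25 times between the nearest libraries.

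The keratin genes were less alike. Krt8 stood at 6.03, 15.8 and 4.23 CPM in E14.5 cultures with PBS and at 5.33, 4.78 and 3.55 CPM with LPS. The adult cultures gave 32.8, 5.11 and 9.03 CPM with PBS and 25.6, 4.93 and 8.67 CPM with LPS. E14.5 culture 2 was the highest E14.5 culture with PBS but not with LPS, the one such exception among the 10 genes. Krt18 stood at 23.8, 76.0 and 16.5 CPM in E14.5 cultures with PBS and at 17.998, 31.1 and 12.7 CPM with LPS. In adult cultures it stood at 81.4, 47.1 and 54.2 CPM with PBS and at 58.4, 40.7 and 33.1 CPM with LPS. The stages overlapped with PBS through E14.5 culture 2 and did not overlap with LPS. Krt19 ran the other way, at 7.09, 15.9 and 3.02 CPM in E14.5 cultures with PBS against 2.43, 4.58 and 1.41 CPM in adult cultures. With LPS it stood at 7.82, 12.4 and 3.00 CPM against 3.96, 3.73 and 1.47 CPM, so that only E14.5 culture 3 lay within the adult range.

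E14.5 culture 2 was the highest of its group in 10 of 10 genes with PBS and 9 of 10 with LPS, against 36.0% and 35.6% of all tested genes. With PBS its level over the mean of E14.5 cultures 1 and 3 was 11.7-fold for Gpm6a, 11.6-fold for Lrrn4, 6.88-fold for Upk3b, 5.16-fold for Bnc1, 3.68-fold for Wt1 and 2.64-fold for Msln, where the median of all tested genes was 0.971. The keratin genes followed at 3.77-fold for Krt18, 3.15-fold for Krt19 and 3.09-fold for Krt8. With LPS the excess was much the same for Gpm6a (10.7-fold), Lrrn4 (10.6-fold) and Wt1 (3.77-fold), but 1.63-fold for Msln, 2.03-fold for Krt18, 2.30-fold for Krt19 and 1.08-fold for Krt8. Adult culture 1 was the highest adult culture in 7 of 10 genes with PBS and 9 of 10 with LPS, against 36.7% and 37.8% of all tested genes. The highest library was a median of 5.34 times the lowest over the 10 genes in the E14.5 group with PBS and 2.80 times in the adult group, where the medians of all tested genes were 1.46 and 1.28. The order of the 3 cultures was the same with PBS and with LPS for 8 of 10 genes in E14.5 (44.8% of all tested genes) and for 6 of 10 in adult cultures (46.6%). These are descriptions, since both cultures were picked out after their values were seen.

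**Figure D2:**
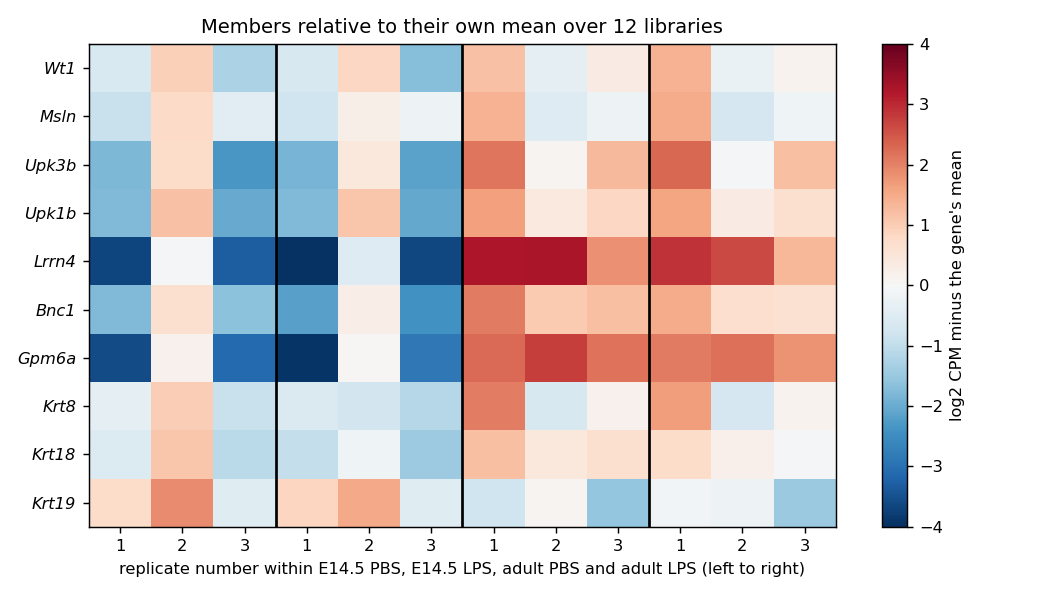
Log2 CPM (prior count 2) of each gene minus its own mean over the 12 libraries, in colour from blue (below the mean) to red (above), with the libraries in columns by group and replicate number. Lrrn4 and Gpm6a were furthest below their means in E14.5 replicates 1 and 3 and above them in all adult libraries, and Krt19 was above its mean in E14.5 replicates 1 and 2.

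The cultures also differed in the markers of other cells. E14.5 culture 2 had the lowest fibroblast sum of the E14.5 cultures, at 8667 CPM with PBS and 7605 CPM with LPS, against 17934 to 23402 CPM in E14.5 cultures 1 and 3. Adult culture 2, in which Lrrn4 and Gpm6a were highest with PBS while Upk3b, Upk1b, Wt1 and Msln were lowest, had the lowest adult fibroblast sum (8559 and 8181 CPM) and the highest endothelial sum, at 1824 CPM with PBS and 1757 CPM with LPS. The endothelial list (Pecam1, Cdh5, Kdr, Tek, Tie1, Egfl7 and Emcn) summed to 15.9 to 397 CPM in the other adult libraries and to 9.98 to 37.0 CPM in E14.5 libraries. Pdgfra did not follow the fibroblast sums, at 2.39, 3.78 and 4.36 CPM in E14.5 cultures 1 to 3 with PBS and 2.25, 5.57 and 4.48 CPM with LPS. In adult culture 2 Pdgfra was highest, at 78.6 CPM with PBS and 121 CPM with LPS, against 28.6 to 55.1 CPM in adult cultures 1 and 3. The other genes of the fibroblast list were lowest in culture 2 of each stage in both treatments. Macrophage genes summed to 129 to 1811 CPM in E14.5 and to 8.47 to 91.0 CPM in adult libraries, with the highest sums in E14.5 culture 3, where Wt1, Upk3b and Upk1b were lowest. The part of these other cells in the levels of the mesothelial and keratin genes was not tested.

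**Figure D3:**
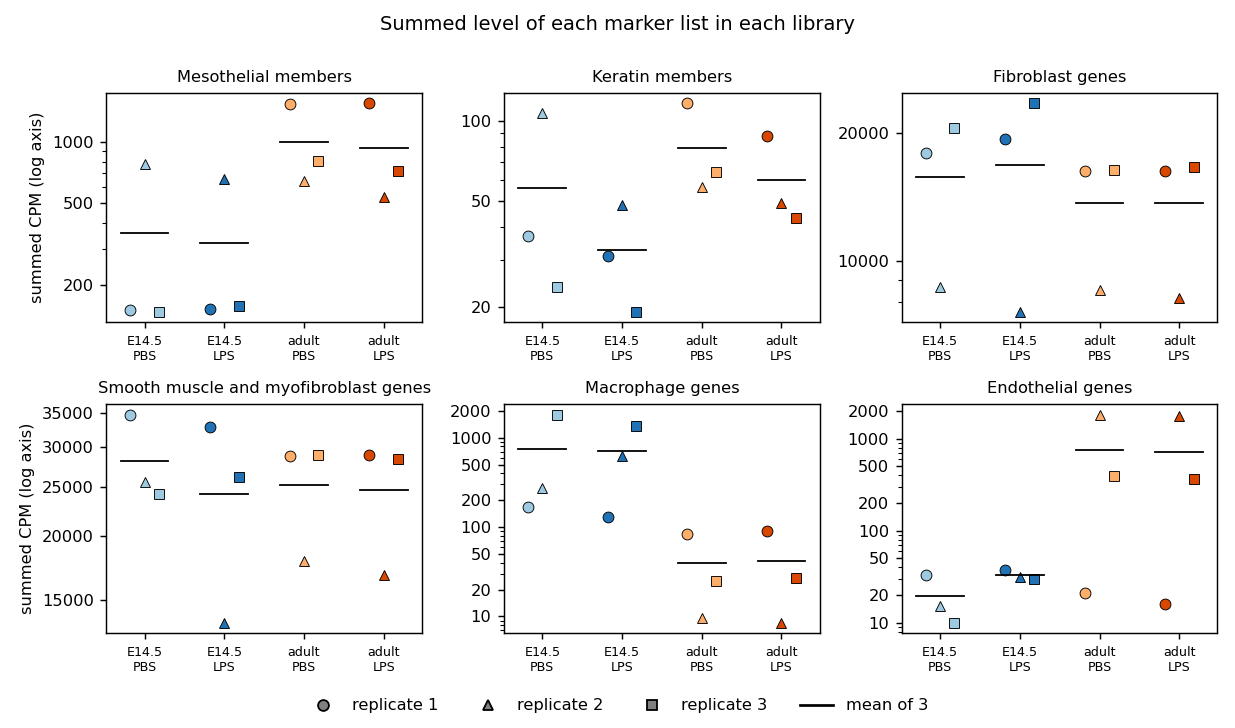
Summed CPM (log axis) of 6 marker lists in each library, by group on the horizontal axis, with the marker shape for the replicate number and a bar for the mean. The mesothelial sum was high in E14.5 replicate 2 (778 and 656 CPM) and adult replicate 1 (1528 and 1537 CPM), the fibroblast sum was low in replicate 2 of both stages, and the endothelial sum was highest in adult replicate 2.

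The first comparison asked how E14.5 and adult stroma differed. With PBS, none of the 10 genes passed edgeR's quasi-likelihood test at a Benjamini-Hochberg adjusted p under 0.05, while 4.18% of all tested genes did. Before adjustment, 4 of the 10 had a p under 0.05 in edgeR (2575 of 13038 genes), and DESeq2 passed Lrrn4 alone of the 9 genes to which it gave an adjusted p, where it passed 11.9% of all genes. DESeq2 gave no adjusted p for Gpm6a in any comparison. In 9 of the 10 genes the fitted level was lower in E14.5, with a median log2 fold change (E14.5 minus adult) of -1.0 against 0.017 over all tested genes. The E14.5 libraries lay below all adult libraries in 3 of 10 genes with PBS (12% of all tested genes) and in 4 of 10 with LPS (12.8%).

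Lrrn4 had the largest difference, a log2 fold change of -4.31 (SE 1.21, edgeR adjusted p = 0.0742) with PBS and -4.27 (adjusted p = 0.0702) with LPS. Gpm6a followed at -3.61 (SE 1.15, edgeR adjusted p = 0.107) and -3.31 (adjusted p = 0.123). Bnc1 was at -1.98 (SE 0.83, edgeR adjusted p = 0.218) with PBS and -1.88 with LPS, and Upk3b at -1.88 (SE 1.00, adjusted p = 0.339) and -2.15. These intervals were wide: the 95% interval of the log2 fold change with PBS was -6.98 to -1.63 for Lrrn4 and -4.10 to 0.34 for Upk3b. The remaining mesothelial genes were nearer to 0. Upk1b had a log2 fold change of -1.15 (95% interval -3.37 to 1.07) with PBS, Wt1 of -0.51 (-2.19 to 1.17) and Msln of -0.50 (-2.01 to 1.02), so that neither a lower nor a higher level in E14.5 was shown. Among the keratin genes Krt8 was at -0.85 (95% interval -2.58 to 0.88) and Krt18 at -0.65 (-1.85 to 0.54), while Krt19 was at 1.63 (0.04 to 3.22, edgeR adjusted p = 0.240). With LPS, none of the 10 passed edgeR's test either (5.13% of all tested genes did). An unadjusted p under 0.05 in edgeR was reached by 3 of 10, against 2830 of 13038 genes. DESeq2 passed 1 of 9, again Lrrn4 (13.1% of all genes). The median log2 fold change over the 10 genes was then -1.32, against -0.0012 over all tested genes. With the counts of the LPS and PBS libraries of a culture summed, which leaves 3 against 3, edgeR passed none, against 1.16% of the genes tested. At an unadjusted p under 0.05 in edgeR were 3 of the 10, against 2447 of 12869 genes.

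The call between stages turned on E14.5 culture 2. Without its 2 libraries, an alternative chosen after the values were seen, edgeR passed 6 of the 10 genes as lower in E14.5 with PBS and 6 with LPS, against 5.17% and 4.53% of all tested genes in that direction. With all libraries those shares were 2.58% and 2.36%, so calls over all tested genes rose as well. Lrrn4 then had a log2 fold change of -6.48 (edgeR adjusted p = 0.00228) with PBS and Gpm6a of -5.80 (adjusted p = 0.00039). Bnc1 was at -3.24 (edgeR adjusted p = 0.00388), Upk3b at -3.45 (adjusted p = 0.0348), Upk1b at -2.95 (adjusted p = 0.0109) and Krt18 at -1.59 (adjusted p = 0.0254). Wt1 at -1.43, Msln at -1.12, Krt8 at -1.61 and Krt19 at 0.85 did not pass. E14.5 culture 2 was the highest E14.5 culture in 10 of 10 genes with PBS and 9 of 10 with LPS. Leaving it out therefore lowers the E14.5 means of those genes by construction. The 6 calls made that way are no independent support for a stage difference. Without adult culture 1, on the other hand, none of the 10 passed in edgeR. In each treatment 2 had an unadjusted p under 0.05 in edgeR, against 2111 of all tested genes with PBS and 2412 with LPS. The log2 fold change with PBS of Msln turned to 0.35 there and that of Krt8 to 0.29. Lrrn4 and Gpm6a kept values of -4.12 and -3.70 there.

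Proportions among the genes were also set side by side between the stages, as a description. Per kilobase of exon, so that genes can be set side by side, Upk1b had the highest mean level of the 10 in all 4 groups, at 57.3 CPM per kb in E14.5 and 127 in adult cultures with PBS. The E14.5 mean was carried by culture 2, at 139 CPM per kb with PBS against 17.9 and 15.1 in cultures 1 and 3. In E14.5 culture 3 Msln was the highest instead, at 23.1 CPM per kb with PBS and 26.9 with LPS. Msln, Krt18 and Upk3b followed in E14.5 with PBS at 30.5, 27.0 and 25.9 CPM per kb, and their libraries overlapped. In adult cultures with PBS Upk3b was second at 95.3 CPM per kb, before Msln at 43.1 and Krt18 at 42.4. Gpm6a and Lrrn4 followed in adult cultures with PBS, at 29.4 and 20.5 CPM per kb, but at 2.404 and 1.03 CPM per kb in E14.5, where Lrrn4 was the lowest of the 10. Krt19 was the lowest in adult cultures, at 1.51 CPM per kb with PBS.

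Ratios of genes within a library do not depend on how that library was scaled. Per kb, Lrrn4 stood at 0.0161 to 0.0440 of Upk3b in the 6 E14.5 libraries and at 0.0827 to 0.676 in the 6 adult libraries, with no overlap, and E14.5 culture 2 (0.0440 and 0.0399) was on the E14.5 side. Gpm6a over Upk3b was 0.0338 to 0.120 in E14.5 and 0.132 to 0.966 in adult libraries, also without overlap. Bnc1 over Upk3b overlapped, at 0.0695 to 0.144 against 0.0514 to 0.173. Upk3b over Upk1b overlapped too, at 0.363 to 0.579 in E14.5 and 0.450 to 0.958 in adult libraries. Upk3b over Msln was 0.306 to 1.31 in E14.5 and 1.79 to 3.33 in adult libraries, without overlap. Wt1 over Msln overlapped, at 0.0595 to 0.256 against 0.145 to 0.245. Krt19 over Krt18 was 0.142 to 0.337 in E14.5 and 0.0202 to 0.0753 in adult libraries, without overlap, and Krt18 exceeded Krt8 in every library, by 3.10 to 12.6 times. No test was made on these ratios, which were chosen with the levels known. The share of other gene pairs whose ratios do not overlap between stages was not computed.

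Genes near the 10 in function were read from fixed lists, which had been written with earlier results of these data known. Of 14 further mesothelial genes, 13 were listed and 11 tested. None was called higher and 2 were called lower in E14.5 in each treatment (2.58% of all tested genes were called lower with PBS and 2.36% with LPS, and 1.6% and 2.77% higher): Cldn15, a claudin of mesothelium and gut, with a log2 fold change of -4.12 (edgeR adjusted p = 0.0110) with PBS, and Slpi, a secreted protease inhibitor, with -6.36 (adjusted p = 0.0345). Cldn15 stood at 0.175 to 0.975 CPM in all E14.5 libraries and at 2.98 to 13.4 CPM in adult ones. With PBS, Slpi stood at 0.0303, 1.10 and 0 CPM in E14.5 cultures 1 to 3, against 43.7, 43.0 and 6.93 CPM in adult ones. E14.5 cultures 1 and 3 were under the floor, so the size of its fold is uncertain. Cldn15 and Slpi passed the expression filter through the adult groups alone, which favours a call of lower in E14.5. The median of the 11 was -0.98 with PBS. Efemp1, an extracellular matrix glycoprotein and the highest of the list, ran from 452 to 1408 CPM in E14.5 and from 75.7 to 440.1 CPM in adult libraries, and Krt7, a simple keratin, from 8.80 to 60.1 CPM against 27.4 to 68.0 CPM.

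Among genes of the intestinal lining the only one tested, Krt20, which marks mature enterocytes, was called higher in E14.5, with a log2 fold change of 1.87 (edgeR adjusted p = 0.0303) with PBS and levels of 21.6 to 59.4 CPM against 7.06 to 13.5 CPM. Cdx2, the transcription factor of that lining, had no count in any library, which allows a level of up to 0.145 CPM in the shallowest. Over the same libraries Epcam was at most 0.487 CPM, Vil1 0.482 CPM and Fabp2 0.0989 CPM. Whether the Krt20 RNA came from enterocytes was not tested. Of 5 desmosome genes, which encode the junctions that keratin filaments attach to, 1 was called higher and none lower in E14.5: Dsp, at 62.6 to 176 CPM against 3.15 to 8.005 CPM (log2 fold change 4.28, edgeR adjusted p = 0.0029 with PBS). Among paralogs of the 10 genes, Krt20 and Lrrn1 were called higher in E14.5. Lrrn1, the relative of Lrrn4, stood at 1.15 to 9.33 CPM in E14.5 and at 0.0863 to 0.241 CPM in adult libraries (log2 fold change 4.68, edgeR adjusted p = 0.0206 with PBS), the opposite direction to Lrrn4. Its values in adult culture 2 with PBS and adult culture 3 with LPS were under the floor. Lrrn1 passed the expression filter through the E14.5 groups alone, which favours a call of higher in E14.5. Among the fibroblast genes 1 of 6 was called, Pdgfra, which was lower in E14.5 (log2 fold change -3.71, edgeR adjusted p = 0.00679 with PBS), and of the 10 macrophage genes Cx3cr1 was called higher with PBS.

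The second comparison asked whether LPS changed the 10 genes. Without pairing of the libraries, edgeR called 0 of 10 in E14.5 (2.52% of all tested genes) and 0 of 10 in adult stroma (0.568%), with 0 of 10 at an unadjusted p under 0.05 in both, and DESeq2 called 0 of 9 in both. The intervals in that fit were wide, since they include the differences between cultures: for Upk3b the log2 fold change with LPS was -0.23 (95% interval -2.39 to 1.92) in E14.5 and 0.03 (-2.12 to 2.18) in adult stroma. Compared within a culture, the level was lower with LPS in 47 of 60 pairs of a gene and a culture, against 52.5% of such pairs over all tested genes. The pairs share cultures and some of the genes varied together, so they are not independent and the count is a description.

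**Figure D4:**
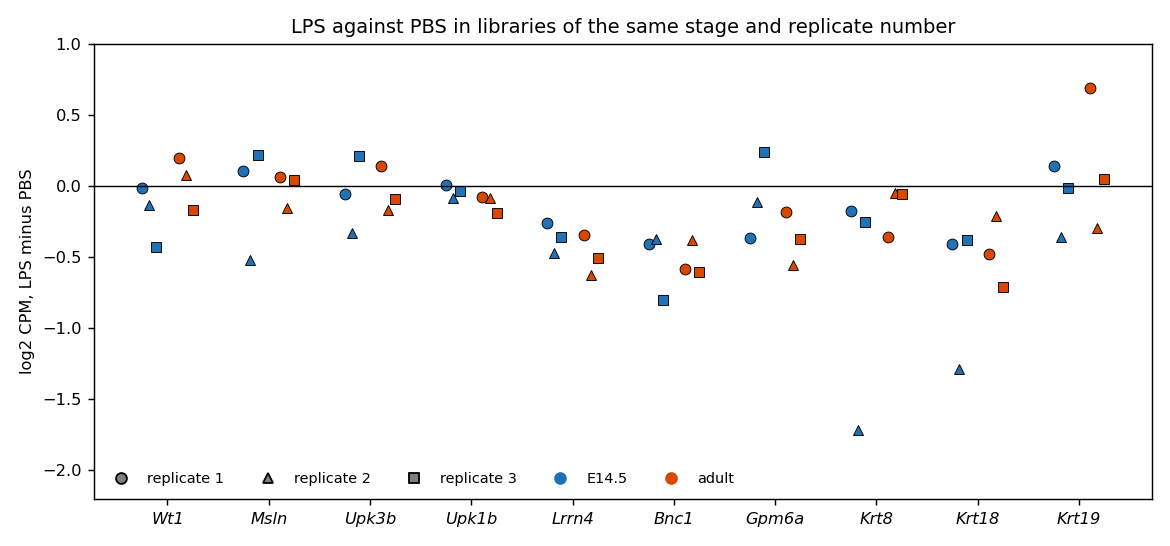
Log2 CPM with LPS minus log2 CPM with PBS for each gene in each culture, with E14.5 in blue, adult in orange, the marker shape for the replicate number and a line at no change. Lrrn4, Bnc1, Krt8 and Krt18 lay below 0 in 6 of 6 cultures, and Krt8 and Krt18 fell furthest in E14.5 replicate 2.

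Lrrn4, Bnc1, Krt8 and Krt18 were lower with LPS in 6 of 6 cultures, which is 4 of the 10 genes against 11.3% of all tested genes. Bnc1 was 1.33, 1.29 and 1.76 times higher with PBS than with LPS in E14.5 cultures 1 to 3, and 1.496, 1.30 and 1.52 times in adult cultures. Lrrn4 was 1.22, 1.39 and 1.31 times higher with PBS in E14.5 cultures and 1.27, 1.54 and 1.42 times in adult cultures. For both genes the 6 cultures lay close together although their levels differed widely. Lrrn4 rested on few counts in E14.5 cultures 1 and 3, with 24 and 32 for PBS and 17 and 19 for LPS. Its ratios in those cultures are therefore imprecise. Krt18 was 1.32, 2.44 and 1.30 times higher with PBS in E14.5 cultures and 1.40, 1.16 and 1.64 times in adult ones. Krt8 was 3.31 times higher with PBS in E14.5 culture 2 but 1.13 and 1.19 times in cultures 1 and 3, and 1.28, 1.04 and 1.04 times in adult cultures, so that its fall was mainly that of 1 culture. In that culture, E14.5 culture 2, the smooth muscle sum was also lower with LPS (13494 against 25540 CPM) and the macrophage sum higher (618 against 273 CPM), and the part of these in the keratin values was not tested.

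With the culture as a block, edgeR called 2 of 10 genes lower in E14.5 with LPS (4.07% of all tested genes in that direction): Bnc1, with a log2 fold change of -0.51 (adjusted p = 0.0282), and Krt18, with -0.71 (adjusted p = 0.0443). Lrrn4 at -0.42 (edgeR adjusted p = 0.0608) and Krt8 at -0.75 (adjusted p = 0.139) did not pass. In adult stroma the block gave 2 of 10 lower (1.65% of all tested genes): Lrrn4, with -0.49 (edgeR adjusted p = 0.0115), and Bnc1, with -0.52 (adjusted p = 0.0252). Gpm6a at -0.37 (edgeR adjusted p = 0.0880) and Krt18 at -0.47 (adjusted p = 0.213) did not pass there. Averaged over both stages with the block, 3 of 10 were called lower (6.97% of all tested genes in that direction). That contrast was added after the values were seen. The 3 were Bnc1 at -0.52 (edgeR adjusted p = 0.00338), Lrrn4 at -0.46 (adjusted p = 0.00445) and Krt18 at -0.59 (adjusted p = 0.0181). In either direction, the block called 12.7% of all tested genes in E14.5, 6.11% in adult stroma and 17.4% over both stages. At an unadjusted p under 0.05 in edgeR with the block were 4 of 10 in E14.5, against 3574 of 13038 genes. In adult stroma they were 4 of 10 against 2361, and over both stages 5 of 10 against 4078.

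Not every call held without each culture. With the block and without E14.5 culture 2, Krt18 in E14.5 was at -0.39 (edgeR adjusted p = 0.0910) and Bnc1 at -0.61 (adjusted p = 0.0371). Without adult culture 1, which is not in the E14.5 contrast but adds to the shared spread, Bnc1 in E14.5 was at -0.52 (edgeR adjusted p = 0.0693) and Krt18 at -0.72 (adjusted p = 0.0733). Bnc1 in adult stroma was then at -0.50 (edgeR adjusted p = 0.237), so these log2 fold changes were close to those with all cultures, while Lrrn4 in adult stroma kept -0.57 (adjusted p = 0.0464). Over both stages, Bnc1 and Lrrn4 passed whichever of these cultures was left out, and Krt18 was at -0.43 (edgeR adjusted p = 0.0108) without E14.5 culture 2 and at -0.59 (adjusted p = 0.0615) without adult culture 1.

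Among the other genes, Gpm6a was lower with LPS in 5 of 6 cultures, and its log2 fold change over both stages with the block was -0.22 (95% interval -0.41 to -0.02, edgeR adjusted p = 0.122). With the block, Upk1b had a log2 fold change over both stages of -0.08 (95% interval -0.18 to 0.02), and its 6 cultures were 0.997 to 1.14 times higher with PBS. Msln was higher with LPS in 4 of 6 cultures and 1.43 times lower in E14.5 culture 2. Krt19 was higher in 3 of 6, by up to 1.63 times in adult culture 1, from 66 counts with PBS and 122 with LPS. Over both stages with the block, the intervals were -0.26 to 0.18 for Msln, -0.31 to 0.38 for Krt19, -0.24 to 0.10 for Wt1 and -0.23 to 0.12 for Upk3b. A difference between the stages in the LPS effect was called for 0 of 10 genes by edgeR, without the block (0% of all tested genes) and with it (0.805%), with 0 of 10 at an unadjusted p under 0.05 in both and 0 of 9 by DESeq2.

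The genes most like each member were found by the root-mean-square difference in log2 CPM over the 12 libraries, with every gene centred on its own mean. For Msln the nearest of all tested genes outside the group was Ezr, which encodes the membrane linker ezrin, at a difference of 0.26, with 219 to 522 CPM in E14.5 and 294 to 867 CPM in adult libraries. For Upk1b it was Tmem151a at 0.31, which was also on the further mesothelial list, followed by Msx1 at 0.33. For Gpm6a it was Pkhd1l1 at 0.34, with 0.386 to 5.88 CPM in E14.5 and 16.0 to 46.0 CPM in adult libraries. Lrrn4 had Musk at 0.42 and Pkhd1l1 at 0.48. Wt1 was nearest to Ctf1 (0.29), Upk3b to Erv3 (0.36), Bnc1 to Tmem108 (0.39), Krt8 to Cdh3 (0.34), Krt18 to Ctdspl (0.31) and Krt19 to Sprr3 (0.31).

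By the same measure some of the 10 genes formed pairs. Lrrn4 was the 2nd nearest gene to Gpm6a of all tested genes, and Gpm6a the 3rd nearest to Lrrn4 (0.53). Upk1b was the 2nd nearest to Upk3b (0.44) and Bnc1 the 14th nearest to Upk1b (0.44). Msln was the 3rd nearest to Krt8, at 0.51, while Krt18, its filament partner, ranked 22nd at 0.60. Wt1 and Krt18 ranked 38th and 35th for each other (0.47). For Krt19 the nearest of the other 9 was Msln, at rank 9754. The 12 points behind each rank share libraries, depth and the stage difference itself, so that the ranks are a description.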

How the data were processed

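The labels and the methods of the study describe stranded libraries of polyadenylated RNA (KAPA RNA Hyper Prep), sequenced as single-end 75 bp reads. The authors trimmed the reads, mapped them with STAR to GRCm38.p6, keeping reads with a single place and no more than 1 mismatch; the deposited values are raw read counts per gene, 1 table per library, and the counts of the expected strand (column 4) were used, without the 4 rows that name no gene (0.334 to 0.425% ambiguous and 8.36 to 9.43% without a gene). Groups came from the labels. edgeR 4.0.16 in R 4.3.3 was used with TMM, 1 mean per group over all 12 libraries and the quasi-likelihood test, two-sided, adjusted by Benjamini-Hochberg over the 13038 tested genes; an adjusted p under 0.05 passed. A fold change is E14.5 over adult or LPS over PBS, and its SE is its size over the square root of F. DESeq2 1.42.0, other normalisations, filters, strand column, thresholds, left-out libraries and a replicate block were alternatives. All 10 members are named; of other lists, those passing with the largest change or, failing that, the highest. Libraries of a group differed by more than counting noise. The block was used where numbers paired the samples: the correlation of deviations from the group mean was 0.61 to 0.849 within a stage. The code of the test was checked on simulated counts with less spread than these data and no culture effects. That check does not show how the test performs at the spread seen here. The members, lists and comparisons were chosen with earlier results of these data known. Adgre1 was read under its older symbol; Muc16 and Muc2 were not analysed here, and a neural and glial list and the counts over all paralogs are not reported here. Counting intervals and floors cover counting error only. Figures were drawn with matplotlib 3.10.9.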

Additional observations from a re-analysis of the deposited data

How the results depend on the processing

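Over the 10 genes, the count called between stages with PBS was 0 in the reported fit (4.18% of all tested genes) and 1 with DESeq2 (of 9 with an adjusted p, 11.9%). It was 3 with a replicate block across stages (6.84%) and 6 without E14.5 replicate 2 (9.77%). With LPS it was 0 (5.13%), 1 (13.1%), 3 (8.26%) and 6 (10.6%). The block across stages is no true pairing, since equal numbers of the 2 stages correlated at -0.306 to -0.00198. Leaving out replicates, singly or as whole cultures, gave 0 to 6 in both treatments. Among these fits, the share of all tested genes was computed only where E14.5 replicate 2 was left out. RLE, no TMM, no filter, filterByExpr, unstranded counts, FDR 0.01, a fold threshold and the 6 libraries of a treatment alone left these counts at 0.

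The replicate block within stage moved the count called with LPS from 0 to 2 in E14.5 (12.7% of all tested genes), to 2 in adult stroma (6.11%) and to 3 over both stages (17.4%). It changed no call for the other 7 genes. With the same block and without E14.5 replicate 2 the counts were 1, 3 and 3, and without adult replicate 1 they were 0, 1 and 2. The shares of all tested genes were not computed for these left-out fits, so their counts have no background to be read against. Leaving out replicates gave 0 to 1, 0 to 3 and 0 to 3 for these 3 counts, and 0 for the interaction, again without shares of all tested genes.

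Directions turned with single replicates left out, in log2 fold change between stages, for Msln (-1.12 to 0.35 with PBS, -1.06 to 0.21 with LPS) and Krt8 (-1.61 to 0.30 with PBS, and 0.29 without both libraries of adult replicate 1). Under LPS without the block they turned in E14.5 for Bnc1 (-1.86 to 0.82), Lrrn4 (-2.52 to 1.74) and Krt18 (-1.34 to 0.031), in adult stroma for Krt8 (-1.22 to 0.89), and over both stages for Bnc1 (-1.20 to 0.14) and Lrrn4 (-1.50 to 0.63). Such a fit leaves an unpaired library of its culture in one arm. These ranges were computed for Bnc1, Lrrn4, Krt8 and Krt18 alone. With a whole culture left out and no block, values near 0 also turned: without E14.5 replicate 2 in E14.5 for Msln (0.17), Upk3b (0.059), Gpm6a (0.0074) and Krt19 (0.0999), and without adult replicate 1 in adult stroma for Wt1 (-0.078), Msln (-0.0499), Upk3b (-0.13) and Krt19 (-0.19). With 3 libraries a group and levels up to 16.9 times apart within one, the spread between cultures limits the comparisons without the block. Within a culture, low counts also limit some ratios, such as those of Lrrn4 in E14.5 cultures 1 and 3.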
